A study of Homo sapiens with 6 samples.

Results

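The genes described here are 10 receptors and signalling genes that place B cells inside or outside the germinal centre: the sphingosine-1-phosphate (S1P) receptor genes S1PR1, S1PR2 and S1PR4, the confinement receptor gene P2RY8, the G-protein gene GNA13 and its effector gene ARHGEF1, the oxysterol receptor gene GPR183, and the chemokine receptor genes CXCR4, CXCR5 and CCR7. They were chosen by name for this role. All 10 had a probe set with a single gene symbol, among 18417 genes so measured. Their RNA was compared in RL cells, an established human B-cell lymphoma line with the t(14;18) translocation, between 3 untreated samples and 3 samples given LY317615 (enzastaurin), an inhibitor developed against protein kinase C beta. Each sample was 1 Affymetrix Gene 1.0 ST array. All sample titles give 48 h. The labels state 2.5 mM LY317615, a unit that could not be checked here, and name no vehicle for the untreated cells. Both groups are the same single line grown in medium with fetal bovine serum, and the labels mention no stromal or other cells beside it. Nothing in the labels ties the replicates to separate cultures. The p-values therefore cover the scatter of these 6 arrays alone, part of which may be technical.

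Germinal-centre B cells move between a dark zone, where they divide, and a light zone, where they are selected. CXCR4 draws them to the dark zone and CXCR5 to the light zone and follicle. CCR7 draws B cells towards the T-cell zone and GPR183 towards the outer follicle. S1PR2 and P2RY8 confine the cells to the centre of the follicle by signalling through the G-protein subunit encoded by GNA13 to the guanine nucleotide exchange factor encoded by ARHGEF1, while S1PR1 guides exit into lymph and blood. S1PR2, P2RY8, GNA13 and ARHGEF1 are recurrently mutated in lymphomas of germinal-centre origin.

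After LY317615, RNA of 2 of the 3 chemokine receptors, CXCR4 and CCR7, fell about as much as each other, by 1.06 and 1.03 on the log2 scale, while that of CXCR5 rose by 0.62. Within the confinement pathway P2RY8 fell by 0.59 and GNA13 by 0.33, and neither S1PR2 nor ARHGEF1 passed the test. S1PR1, S1PR4 and GPR183 did not pass either. In all, 4 of the 10 genes fell, 1 rose and 5 did not pass at an adjusted p of 0.05 (limma with Benjamini-Hochberg adjustment over all genes). Over all genes 35.7% were called, 21.4% lower and 14.2% higher in treated cells (17.8% and 12.9% of 30.7% after cyclic loess, 26.4% and 8.27% of 34.7% with array medians set equal). With so many genes called, the count over the members says little and each gene is described by its own values. Changes also varied with brightness. Genes were split into 5 equal bins by mean intensity. In the brightest bin, which holds CXCR4, GNA13 and P2RY8, 47.6% were called lower and the median log2 fold change was -0.21. In the next bin, with CXCR5, S1PR2 and ARHGEF1, 37.0% were called lower and 12.5% higher, with a median of -0.14. In the middle bin, with CCR7 and S1PR4, 15.4% were called lower and 24.4% higher, and the median was 0.11. In the dimmest bin, with S1PR1 and GPR183, 2.36% were called lower and 6.73% higher, with a median of 0.06.

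**Figure D1:**
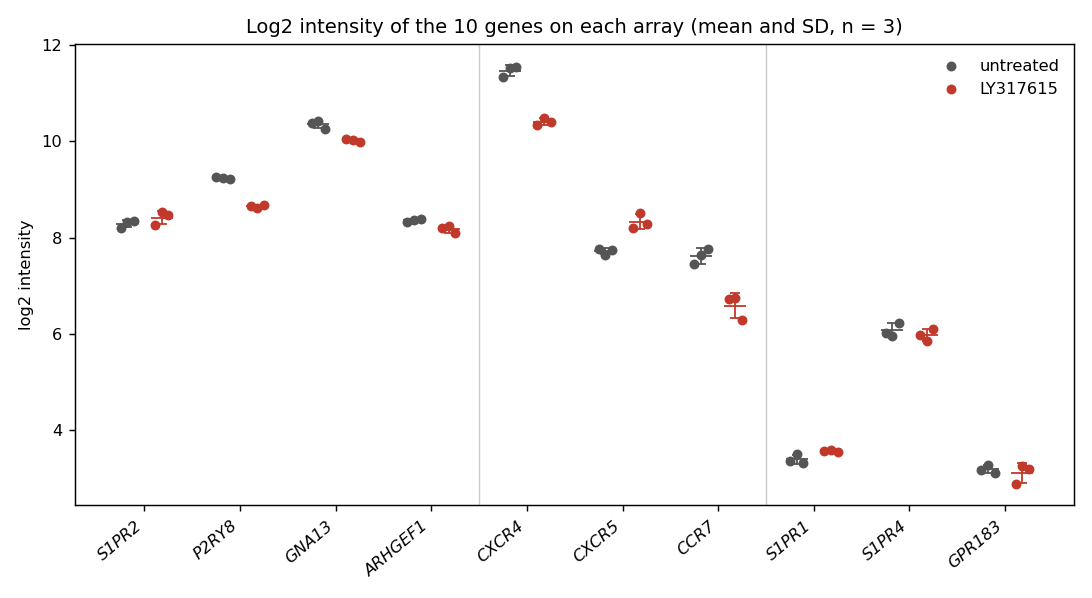
Log2 intensity of each of the 10 genes (x axis) on the 3 untreated and 3 LY317615-treated arrays (points), with the mean and SD of each group. Treated and untreated arrays lie apart for CXCR4, CCR7, CXCR5, P2RY8, GNA13, ARHGEF1 and S1PR1, and those of S1PR2, S1PR4 and GPR183 overlap. The groups lie apart in 49.8% of all genes.

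The array of treated replicate 3 was the most deviant, with an array weight in limma of 0.376 where the rest had 1.04 to 1.51. Without it the same 5 members passed: CXCR4 was at -1.06, CCR7 at -0.88, CXCR5 at 0.64, P2RY8 at -0.60 and GNA13 at -0.32. ARHGEF1 was then at -0.15 and S1PR2 at 0.10, neither past the threshold. ABCC1, GGT5, PLPP1, PLPP3, STAM2 and XCR1 were among the genes of the lists given further on that did not pass without it. RL cells carried the RNA of their labelled type. CD79A had a log2 intensity of 11.50 in untreated cells, and 6 of 7 measured B-cell markers fell after treatment, the exception being CD79B (-0.01). The summed intensity of the 7 ran from 10264 to 10779 untreated and from 7193 to 7885 treated. CR2, the complement receptor gene of mature B cells, was the dimmest of them at 3.89. All the rest lay in the brightest bin, where 47.6% of genes were called lower. After cyclic loess 5 of the 7 were called lower, and BLK, at -0.16, did not pass (adjusted p by limma = 0.0885). Of 8 T-cell markers 2 rose and 0 fell, and their summed intensity was 354 to 361 untreated and 424 to 485 treated. Of 10 myeloid and stromal markers 5 rose and 0 fell, and the sum was 403 to 443 untreated and 584 to 636 treated. CD7, with a rise of 0.58, and PECAM1, with a rise of 1.12, made up much of these differences. Both lay in the bin below the brightest, where 12.5% of genes were called higher. Many of the T-cell, myeloid and stromal markers lay in the bin next to the dimmest, which holds no member. In that bin 18.1% of all genes were called higher and 4.70% lower, with a median log2 fold change of 0.15. After cyclic loess 1 of the T-cell markers and 2 of the others were called higher, and with array medians set equal 2 and 2. The untreated means of these genes ran from 3.33 (TRAT1) to 7.07 (CD7) among T-cell markers and from 3.13 (FCGR3A) to 6.60 (PECAM1) among the others, and the part of such shifts in the receptor results was not tested. In bulk RNA, fewer cells with a transcript and less of it per cell cannot be told apart.

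CXCR4 encodes the receptor for CXCL12, the chemokine of the dark zone. Its log2 intensity (probe set 8055465) was 11.34, 11.53 and 11.55 on the untreated arrays and 10.35, 10.48 and 10.41 on the treated arrays. The highest treated array lay below the lowest untreated one. It fell by 1.06 ± 0.09 (SE) on the log2 scale, which is 2.08-fold less RNA (95% confidence interval 1.82 to 2.38), with an adjusted p of 6.86e-05. Only 151 genes had a lower fold change. The change was -1.06 without treated replicate 3 and -0.95 after cyclic loess, which takes out trends with brightness.

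CCR7 encodes the receptor for CCL19 and CCL21, the chemokines of the T-cell zone. It read 7.44, 7.65 and 7.76 untreated and 6.72, 6.75 and 6.28 treated (probe set 8015031). The groups did not overlap, and treated replicate 3 had the lowest value. It fell by 1.03 ± 0.14 (SE), or 2.05-fold (95% confidence interval 1.65 to 2.53; adjusted p = 0.000637). Without treated replicate 3 it was -0.88, still past the threshold (adjusted p = 0.0013).

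CXCR5, the receptor gene for the follicular chemokine CXCL13, was the only member that rose. Its values were 7.76, 7.64 and 7.73 on the untreated arrays and 8.20, 8.51 and 8.29 on the treated arrays (probe set 7944335). All 3 treated arrays lay above all untreated ones, with replicate 2 the highest. The rise was 0.62 ± 0.10 (SE), or 1.54-fold (95% confidence interval 1.32 to 1.78; adjusted p = 0.00135), and 271 genes had a higher fold change. It was 0.74 after cyclic loess and 0.54 with array medians set equal.

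CXCR4 and CXCR5 thus moved in opposite directions on the same arrays. The change of CXCR5 less that of CXCR4, taken against the untreated means, was 1.68 on the log2 scale on average and ran from 1.61 to 1.79 over the treated arrays. On the untreated arrays the same quantity ran from -0.12 to 0.18. An exact two-sided permutation test over the 20 splits of the 6 arrays gave p = 0.1, the smallest that 3 arrays against 3 can give. This pair was picked with its values known. The groups of CXCR4 and of CXCR5 did not overlap, in opposite directions, so this p was fixed before the test and adds nothing to those results. The quantity does not depend on the scaling of an array as a whole.

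The promoters of CXCR4, P2RY8 and CXCR5 are shown because these genes were called in opposite directions. RefSeq promoters (build GRCh38.p14, 300 bases around a transcript start) were at hand for 9 of the 10 genes, not for CCR7. The sequences belong to the first listed start site of each gene. CXCR4 lies at chr2:136118100-136118399 (minus strand), P2RY8 at chrX:1537136-1537435 (minus strand) and CXCR5 at chr11:118893142-118893441 (plus strand). Capitals mark matches on either strand to CACCC, the core bound by KLF factors. KLF2, the KLF factor of lymphocyte trafficking, is itself described with the transcription factors.
CXCR4: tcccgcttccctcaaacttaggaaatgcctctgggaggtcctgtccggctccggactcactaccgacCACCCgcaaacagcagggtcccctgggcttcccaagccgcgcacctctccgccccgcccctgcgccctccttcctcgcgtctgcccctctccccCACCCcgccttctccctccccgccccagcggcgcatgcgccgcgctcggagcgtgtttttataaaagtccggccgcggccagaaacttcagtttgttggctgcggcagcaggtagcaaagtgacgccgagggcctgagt
P2RY8: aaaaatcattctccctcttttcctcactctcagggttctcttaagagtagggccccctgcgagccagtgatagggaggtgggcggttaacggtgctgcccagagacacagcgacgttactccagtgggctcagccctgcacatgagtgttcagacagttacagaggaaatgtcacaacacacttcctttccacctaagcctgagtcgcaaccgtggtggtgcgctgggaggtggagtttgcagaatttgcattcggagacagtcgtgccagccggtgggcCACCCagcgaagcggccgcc
CXCR5: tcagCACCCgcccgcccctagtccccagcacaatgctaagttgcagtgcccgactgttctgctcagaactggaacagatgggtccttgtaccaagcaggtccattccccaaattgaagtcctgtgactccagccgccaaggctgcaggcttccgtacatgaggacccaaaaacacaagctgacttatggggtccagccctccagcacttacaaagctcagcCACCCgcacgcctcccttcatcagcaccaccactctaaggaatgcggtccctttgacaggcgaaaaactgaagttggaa
CACCC occurred 2 times in the CXCR4 window, 1 time in that of P2RY8 and 2 times in that of CXCR5. It is found in 59.8% of 34796 distinct promoter windows of the same length. Among the member windows not shown, that of S1PR4, which was not called, held the most matches to it, 6. The other window of P2RY8 held 0. None of the 15 windows of the 9 genes held the forkhead motif GTAAACA (3.42% of windows) or the NF-kB motif (1.6%) on either strand. The NF-kB motif was searched as GGGA and TTCC with 2 bases of any kind between them. Matches to different motifs therefore did not overlap. These are matches of letters only.

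Of the confinement genes, P2RY8, whose product binds S-geranylgeranyl-L-glutathione and inhibits migration, had the closest replicates. It read 9.26, 9.25 and 9.21 untreated and 8.67, 8.61 and 8.68 treated (probe set 8171136). The 2 groups lay well apart. The gene fell by 0.59 ± 0.07 (SE), or 1.50-fold (95% confidence interval 1.35 to 1.68; adjusted p = 0.000377). It was -0.60 without treated replicate 3 and -0.43 after cyclic loess. P2RY8 lies in the region shared by the X and Y chromosomes, and a further probe set, 8177026, held identical values on every array and was counted once.

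GNA13, the G-protein subunit through which S1PR2 and P2RY8 signal, read 10.38, 10.41 and 10.27 untreated and 10.05, 10.02 and 9.99 treated (probe set 8017711). All treated arrays were lower. It fell by 0.33 ± 0.07 (SE), or 1.26-fold (95% confidence interval 1.12 to 1.42; adjusted p = 0.00878), and 16.7% of all genes had a lower or equal fold change. After cyclic loess it was -0.20 (adjusted p = 0.0468). A further probe set, shared with genes other than GNA13, was left out.

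ARHGEF1, the exchange factor gene downstream of GNA13, read 8.33, 8.38 and 8.39 untreated and 8.19, 8.24 and 8.09 treated (probe set 8029147). The groups did not overlap, as in 49.8% of all genes, 27.8% with treated lower. The difference of -0.19 ± 0.07 (SE) did not pass (adjusted p = 0.0755). It passed with array medians set equal (-0.27, adjusted p = 0.031), with a variance prior that follows intensity (adjusted p = 0.0433) and without the dimmest 30% of genes (adjusted p = 0.042), and was -0.05 (adjusted p = 0.541) after cyclic loess.

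S1PR2, the other receptor of this pathway, read 8.21, 8.32 and 8.35 untreated and 8.26, 8.53 and 8.46 treated (probe set 8033956). The groups overlapped. The difference of 0.13 ± 0.09 (SE) did not pass (adjusted p = 0.3), with a 95% confidence interval from -0.08 to 0.33 that leaves room for a rise of up to 1.26-fold. After cyclic loess it was 0.27 (adjusted p = 0.0669). Whether S1PR2 and P2RY8 responded differently was not tested beyond these separate fits, whose intervals of -0.08 to 0.33 and -0.74 to -0.43 do not meet.

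**Figure D2:**
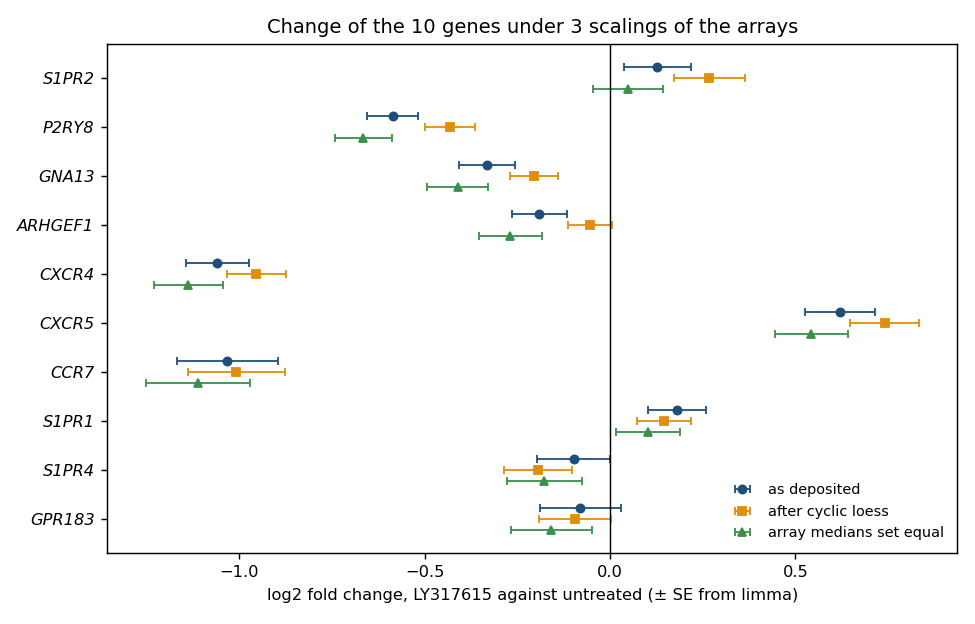
Log2 fold change (x axis, LY317615 against untreated, with the SE from limma) of each of the 10 genes for the values as deposited, after cyclic loess and with array medians set equal. CXCR4, CCR7, P2RY8 and GNA13 lie below 0 and CXCR5 above 0 under all 3 scalings, while ARHGEF1 moves from -0.27 to -0.05.

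The receptors that guide egress and outer positioning were dim or did not pass. S1PR1, the egress receptor, read 3.36, 3.50 and 3.31 untreated and 3.57, 3.59 and 3.54 treated (probe set 7903393), at the 5.94th percentile of untreated intensity. All treated arrays were higher, as in 22.0% of all genes, but the difference of 0.18 ± 0.08 (SE) did not pass (adjusted p = 0.101). GPR183, the receptor for oxysterols made by CH25H and CYP7B1, was dimmer still, at the 4.13th percentile, and read 3.17, 3.28 and 3.11 untreated and 2.87, 3.25 and 3.20 treated (probe set 7972557). Its groups overlapped, with a difference of -0.08 ± 0.11 (SE, adjusted p = 0.594). It is not known whether probe sets this dim were above background, so these values do not bound the change of the RNA. S1PR4, an S1P receptor gene of lymphoid cells, read 6.02, 5.96 and 6.23 untreated and 5.98, 5.85 and 6.09 treated (probe set 8024582). These groups overlapped too, at -0.10 ± 0.10 (SE, adjusted p = 0.462; 95% confidence interval -0.32 to 0.13).

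**Figure D3:**
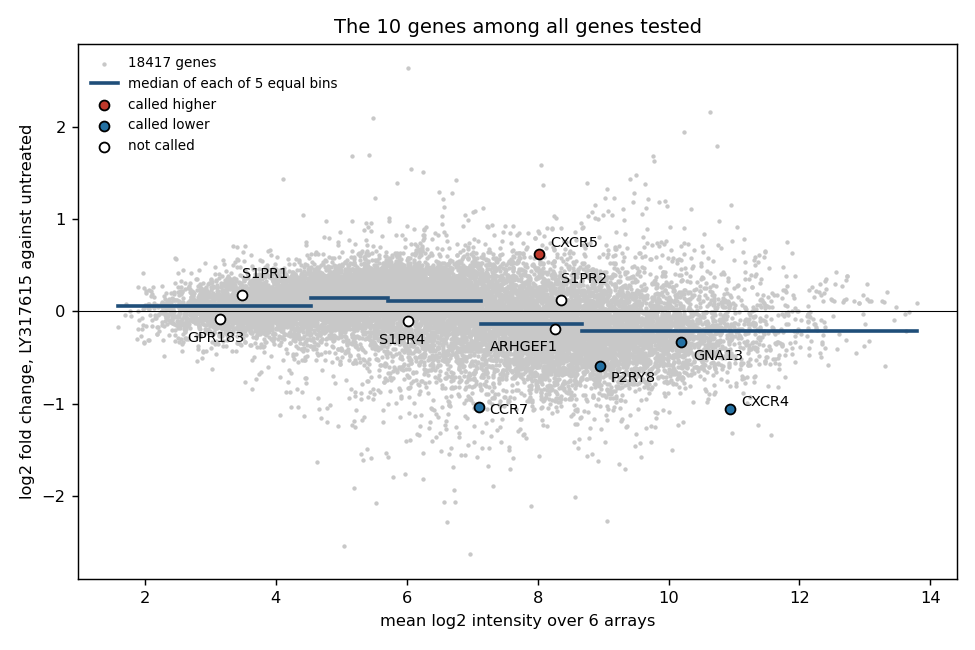
Log2 fold change (y axis) against mean log2 intensity over the 6 arrays (x axis) for all 18417 genes (grey) and the 10 genes (large points, coloured by call), with the median of each of 5 equal bins of brightness as a line. CXCR4 at -1.06 lies far below the median of -0.21 of the brightest bin, and GNA13 at -0.33 lies near it.

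The genes around these receptors were taken from 8 lists by role. Of 139 measured genes, 19 rose and 26 fell, or 32.4%, close to the share of all genes. The number called fell from 45 to 24 without untreated replicate 2. The median log2 fold change of each list is given beside that of all genes, 0.02.

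Among 11 measured genes of the other S1P receptors and of S1P synthesis, breakdown and transport, 2 rose and 2 fell, with a median of 0.18. S1PR5, an S1P receptor gene best known from natural killer cells, rose by 0.33 ± 0.08 (SE, adjusted p = 0.0116). PLPP3, a lipid phosphatase gene, rose by 0.28, while the S1P phosphatase gene SGPP1 changed by -0.32 and PLPP1 by -0.41. The calls of SGPP1, PLPP1 and PLPP3 were lost in 3, 5 and 6 of 14 alternatives. The S1P-making kinase gene SPHK1 was at 0.46 and the lyase gene SGPL1 at -0.21, neither past the threshold (adjusted p = 0.0612 and 0.051).

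Downstream of GNA13, 3 of 18 genes that link G12 and G13 proteins to the actin and myosin cytoskeleton rose and 3 fell, with a median of 0.05. With array medians set equal the median was -0.03, and 0 rose and 4 fell. After cyclic loess 5 rose and 2 fell, and without untreated replicate 2 or 3, 1 rose and 2 fell. RHOA, the GTPase that ARHGEF1 activates, read 11.26, 11.33 and 11.26 untreated and 10.94, 10.91 and 10.86 treated. It fell by 0.38 ± 0.07 (SE, adjusted p = 0.00382), and the groups did not overlap. LIMK1, a kinase gene that acts on cofilin, changed by -0.39 and the cytoskeletal kinase gene ROCK2 by -0.31. RHOC rose by 0.30, ARHGAP25 by 0.28 and the myosin light chain gene MYL9 by 0.41, and with array medians set equal none of these 3 passed (adjusted p = 0.0635, 0.134 and 0.0582). The call of ROCK2 was lost in 4 alternatives and that of RHOC in 2. The other exchange factor genes that G12 and G13 proteins act on, ARHGEF11 and ARHGEF12, were at 0.07 and 0.08 (adjusted p = 0.574 and 0.485), and GNA12 was at 0.03 (adjusted p = 0.825).

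Chemokine receptors signal mainly through Gi proteins and their beta-gamma subunits. Of 29 measured genes of this kind, 6 rose and 5 fell, with a median of 0.05. With array medians set equal the median was -0.03, and 1 rose and 7 fell. Without untreated replicate 2, 1 rose and 3 fell. GNG7, a gamma subunit gene, rose by 0.76 ± 0.08 (SE, adjusted p = 0.000233), from 7.90 to 8.11 over the untreated arrays to 8.74 to 8.84 over the treated ones. PIK3CG, the PI3-kinase catalytic gene that beta-gamma subunits activate, fell by 0.74 ± 0.07 (SE, adjusted p = 0.000133), from 9.19 to 9.26 down to 8.49 to 8.50. DOCK8, an exchange factor gene for CDC42, changed by -0.66 and ELMO1, a partner of DOCK2 in RAC activation, by -0.36, a call lost in 1 alternative. Of the Gi subunit genes, GNAI3 changed by -0.32 (adjusted p = 0.018) and GNAI2 was at 0.23 (adjusted p = 0.0697). After cyclic loess GNAI3 was at -0.18 and did not pass (adjusted p = 0.0823), while GNAI2, at 0.35, did (adjusted p = 0.0077).

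Of 13 measured genes that desensitise receptors or take them off the surface, 4 fell and 1 rose, with a median of -0.11. After cyclic loess 1 fell and 2 rose, and equal array medians gave 6 lower and 1 higher. CD69, whose product binds S1PR1 and removes it from the surface, read 6.67, 6.66 and 6.73 untreated and 5.15, 5.60 and 5.09 treated. No array of 1 group came near the other. CD69 fell by 1.41 ± 0.13 (SE, adjusted p = 0.000113). GRK6, a receptor kinase gene, changed by -0.25, STAM2 by -0.29 and VPS4B by -0.25, both of the sorting machinery for degradation. GRK5 rose by 0.40. The calls of GRK5, STAM2 and VPS4B were lost in 2, 4 and 5 alternatives.

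Ligand genes were mostly not called. Of 9 measured ligands and ligand enzymes, GGT5, which breaks down the P2RY8 ligand, rose by 0.39, and ABCC1, a glutathione conjugate exporter that can export that ligand, changed by -0.25. These calls were lost in 8 and 7 of 14 alternatives. The list median was 0.10. CXCL12, CXCL13, CCL19 and CCL21 were not called. They were dim, at percentiles 17.6, 4.61, 30.8 and 36.7 of untreated intensity, and whether they were above background is not known. Of 18 other chemokine receptors, XCR1 was the only one called, at 0.37, a call lost in 6 alternatives, and the median was 0.13. CXCR3 lay just outside at 0.39 (adjusted p = 0.0504). These receptors were dim as a list, with untreated means from 3.53 to 6.22.

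Of 24 other G-protein coupled receptors of lymphocytes measured, 6 fell and 2 rose, with a median of -0.07. PTGER4, a prostaglandin E2 receptor gene, read 6.78, 7.11 and 7.09 untreated and 5.78, 6.13 and 5.75 treated. It fell by 1.11 ± 0.13 (SE, adjusted p = 0.000326). GPR18, a receptor gene expressed in lymphocytes, changed by -0.80, the platelet-activating factor receptor gene PTAFR by -0.56 and GPR132, a proton-sensing receptor gene, by -0.55. These 4 calls held in all 14 alternatives. The adenosine receptor gene ADORA2B and the UDP-glucose receptor gene P2RY14 both rose by 0.63, and P2RY12 changed by -0.44. P2RY14 and P2RY12 were dim, at percentiles 17.1 and 13.5 of untreated intensity, and whether they were above background is not known. P2RY13 (-0.29) is among the 6, but at the 6.09th percentile of untreated intensity it was about as dim as S1PR1, and the size of its change carries the same limit.

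Among 17 measured transcription factors of germinal-centre B cells and of homing receptor genes, 5 fell and 3 rose, with a median of 0.05 that became -0.02 with array medians set equal. BCL6 and BACH2 both changed by -1.23 ± 0.08 and ± 0.07 (SE). POU2F2, which encodes the octamer factor OCT2, changed by -0.58, HIF1A, a factor known to raise CXCR4, by -0.54, and YY1 by -0.35. NFKB1 and RELB, of the NF-kB family, rose by 0.36 and 0.33, and ZBTB16 by 0.23. KLF2, the main activator of S1PR1, was at 0.23 (adjusted p = 0.135) and FOXO1, which controls CXCR4 and the dark zone, at -0.04 (adjusted p = 0.686; 95% confidence interval -0.21 to 0.13). NRF1 was not called. Of the genes called in these lists and named here, ABCC1, ELMO1, GGT5, GNAI3, GRK5, GRK6, MYL9, P2RY14, PLPP3, ROCK2, SGPP1, STAM2, VPS4B, XCR1, YY1 and ZBTB16 did not pass after cyclic loess, with adjusted p by limma from 0.054 (PLPP3) to 0.35 (GRK6).

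**Figure D4:**
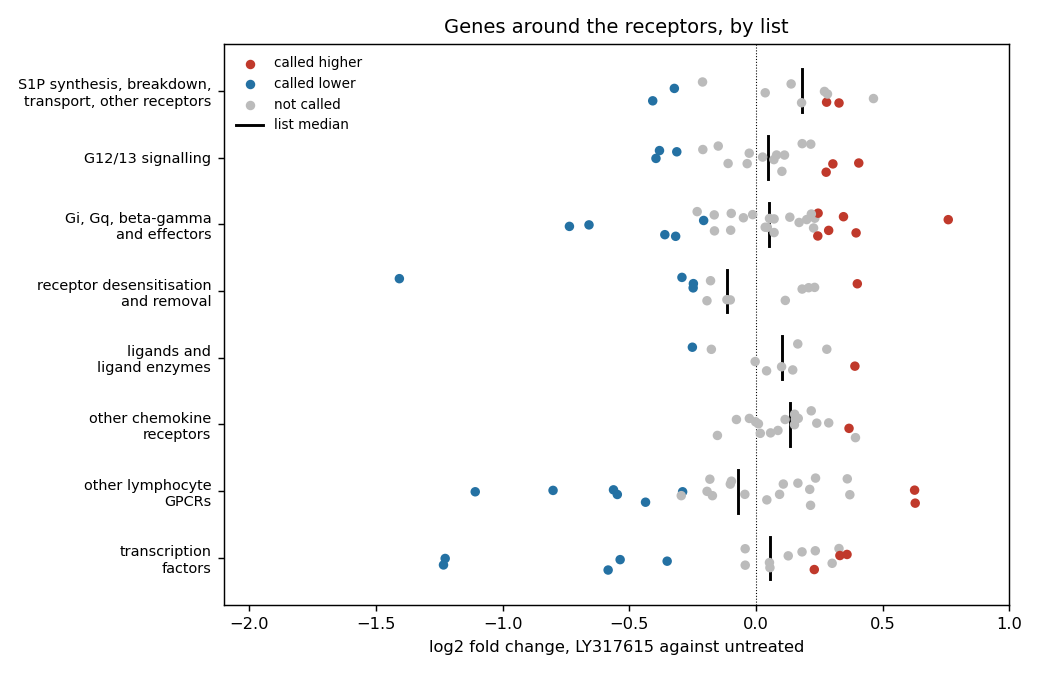
Log2 fold change (x axis) of each measured gene in 8 lists around the receptors, coloured by call, with a black bar at each list median. Calls lie on both sides of 0 in every list except the other chemokine receptors, and the list medians run from -0.11 to 0.18.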

How the data were processed

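RNA of RL cells was measured on 6 Affymetrix Gene 1.0 ST arrays, 3 per group, grouped by the labels. The authors deposited linear intensities, 1 per probe set and array; RMA, Affymetrix Expression Console and GCOS 1.4 are named in the submitters' processing notes, without order. The step back from the log2 scale of RMA is not stated, and no genome build or detection call is given in the sources used here. Log2 was taken with no added constant and no filter. Of 33297 probe sets, 19460 had a single symbol, and the brightest of each gene was kept (18417 genes). All genes were fitted together (limma 3.58.1 under R 4.3.3, eBayes with a constant prior, two-sided) and adjusted by Benjamini-Hochberg at 0.05. The fit was also run on simulated data with few changed genes, a common spread and no trend with brightness. These arrays differ from that setting, so the run says little about them. Precision is limited by having 3 arrays per group.

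The 10 genes, the lists and the tests were chosen with earlier results of these data known. Named list genes are up to 4 called genes of smallest adjusted p per list. From marker lists they are the brightest and dimmest. All 10 members are named. CD79B, BLK, SPHK1, SGPL1, ARHGAP25, MYL9, ARHGEF11, ARHGEF12, GNA12, GNAI2, GNAI3, GRK6, CXCR3, the ligands, ADORA2B, P2RY12, P2RY13, P2RY14, YY1, NFKB1, RELB, ZBTB16, KLF2, FOXO1 and NRF1 were named after their values were seen. Protein sequences were not used here. Figures used Python 3.11.15 and matplotlib 3.10.9.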

Additional observations from a re-analysis of the deposited data

How the results depend on the processing

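Alternatives changed the model (a block for the replicate number, a variance prior that follows intensity, array weights), the scaling (equal array medians, or cyclic loess), the arrays (each left out once), the genes (the dimmest 30% removed), the probe sets (averaged per gene, or all tested) and the threshold (0.01). CXCR4, CCR7, P2RY8, GNA13 and CXCR5 kept their direction and passed 0.05 in all 14 alternatives that refit them, with log2 fold changes from -1.14 to -0.95, -1.12 to -0.88, -0.67 to -0.43, -0.41 to -0.20 and 0.53 to 0.74. S1PR1, S1PR2 and S1PR4 passed in none of theirs and kept their direction. At an adjusted p of 0.01 the members called stayed at 4 lower and 1 higher. ARHGEF1 passed in 3 alternatives: array medians set equal (-0.27), the intensity trend (-0.19) and without the dimmest 30% of genes (-0.19). S1PR1 and GPR183 were not tested in the last of these, since they are among the dimmest. GPR183 ran from -0.15 to 0.04 when 1 array was left out and changed sign without treated replicate 1 (0.0384). The CXCR5 change less that of CXCR4 ran from 1.62 to 1.77.

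Genes called higher numbered 2622, against 1523 with array medians set equal, 967 at an adjusted p of 0.01 and 1566 to 2538 with 1 array left out. Genes called lower numbered 3946, against 2619 at 0.01 and 3043 to 3677 with 1 array left out. The share of lower genes moved from 60.1% to 76.1% with array medians set equal. Calls in the 8 lists numbered 45, against 17 at 0.01 and 24 to 40 with 1 array left out. The cause of these shifts was not tested.

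Deviations from the group means correlated weakly across genes for arrays of the same replicate number (-0.02, 0.09 and 0.07). For arrays of different number the correlations ran from -0.11 to 0.04. Such weak values do not settle whether the numbers mark pairs, and the numbers were not taken as pairs. With the replicate number as a block the members stayed at 4 lower and 1 higher, CXCR4 at an adjusted p of 0.000184 and ARHGEF1 at 0.113, and the genes called numbered 2712 higher and 3836 lower.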
